A study of Mus musculus with 8 samples.

Results

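The genes examined here encode subunits of the mitochondrial respiratory chain and ATP synthase in macrophages of healing mouse skin wounds. They are 56 of the 55414 genes of the deposited count table, found by symbol: 43 lie in the nuclear genome and 13 on the mitochondrial chromosome (MT). Of the nuclear members, 21 belong to complex I, 7 to complex III with cytochrome c, 9 to complex IV and 6 to ATP synthase. Ndufa4, named after complex I, was counted with complex IV. Of the mitochondrial members, 7 belong to complex I, 1 to complex III, 3 to complex IV and 2 to ATP synthase.

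The respiratory chain passes electrons from NADH and succinate to oxygen and pumps protons across the inner mitochondrial membrane, and ATP synthase uses the proton gradient to make ATP. All complexes except complex II are built from products of both genomes. Nuclear genes are transcribed singly, whereas the mitochondrial genes are transcribed as long polycistronic RNAs that are cut into single mRNAs, tRNAs and rRNAs, so that the amounts of mitochondrial mRNA depend on a different transcription and RNA decay machinery. Inflammatory macrophages are known for glycolysis with reduced use of the chain, and macrophages of the repair phase for oxidative metabolism.

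Bulk RNA sequencing was done on skin wound-bed macrophages 1 day and 3 days after injury, from 3 libraries of day 1, named a to c, and 5 of day 3, named a to e. Cells of digested tissue were selected with magnetic beads against F4/80, the protein encoded by Adgre1, and each library came from 6 wounds of 3 mice pooled. No strain, age, genotype or treatment is given in the labels beyond the wound and the day, and the protocols state 6 samples per time point, of which 8 libraries in all are analysed here. Whether 1 mouse gave tissue to more than 1 pool is not stated, and p-values therefore speak only of how much pools vary.

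Total counts ran from 41566151 to 60289310 per library. The day 1 libraries held a count for 23928 to 27315 genes, day 3 library a for 20557 and the other day 3 libraries for 14952 to 15359. All 11 macrophage markers examined were counted in every library, and their sum was 24654 to 33567 CPM (counts scaled to a common library total) at day 1 and 55495 to 65418 at day 3. Neutrophil markers, 12 in number, summed to 995 CPM in day 1 a, 2771 in b and 4794 in c, and to 770, 4123, 538, 564 and 652 CPM in day 3 a to e. In bulk RNA, fewer cells of a type and less RNA per cell cannot be told apart.

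The nuclear members had slightly higher levels at day 3 on balance, most of all the small subunits of complex I, while the catalytic beta subunit of ATP synthase had lower levels, and the mitochondrial members varied far more between pools of one day than between the days. No member passed the edgeR quasi-likelihood test at an adjusted p under 0.05, where 0.013% of the 15371 genes tested were called. The median log2 fold change, day 3 over day 1, was 0.24 over the 43 nuclear members and -0.17 over the 12 mitochondrial members that were tested, or -0.24 over the 7 of them with over 1000 counts in every library. The median of all tested genes was -0.17, and that of the 2315 genes with an average log2 CPM of 6 or more was -0.05. Above 0 lay 42.7% of all tested genes and 46.4% of the 2315. At an unadjusted p under 0.05, 14 nuclear members were higher at day 3, against 5.12% of all genes tested, and 2 were lower, against 10.6%. DESeq2 called 6 members higher (Ndufa1, Ndufa6, Ndufc1, Ndufc2, Uqcrq and Cox6c), where it called 2.64% of its genes, and 1 lower (Atp5b), where it called 4.58%. With limma voom, Cox6c was called higher (0.95% of all genes) and Atp5b lower (4.46%).

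**Figure D1:**
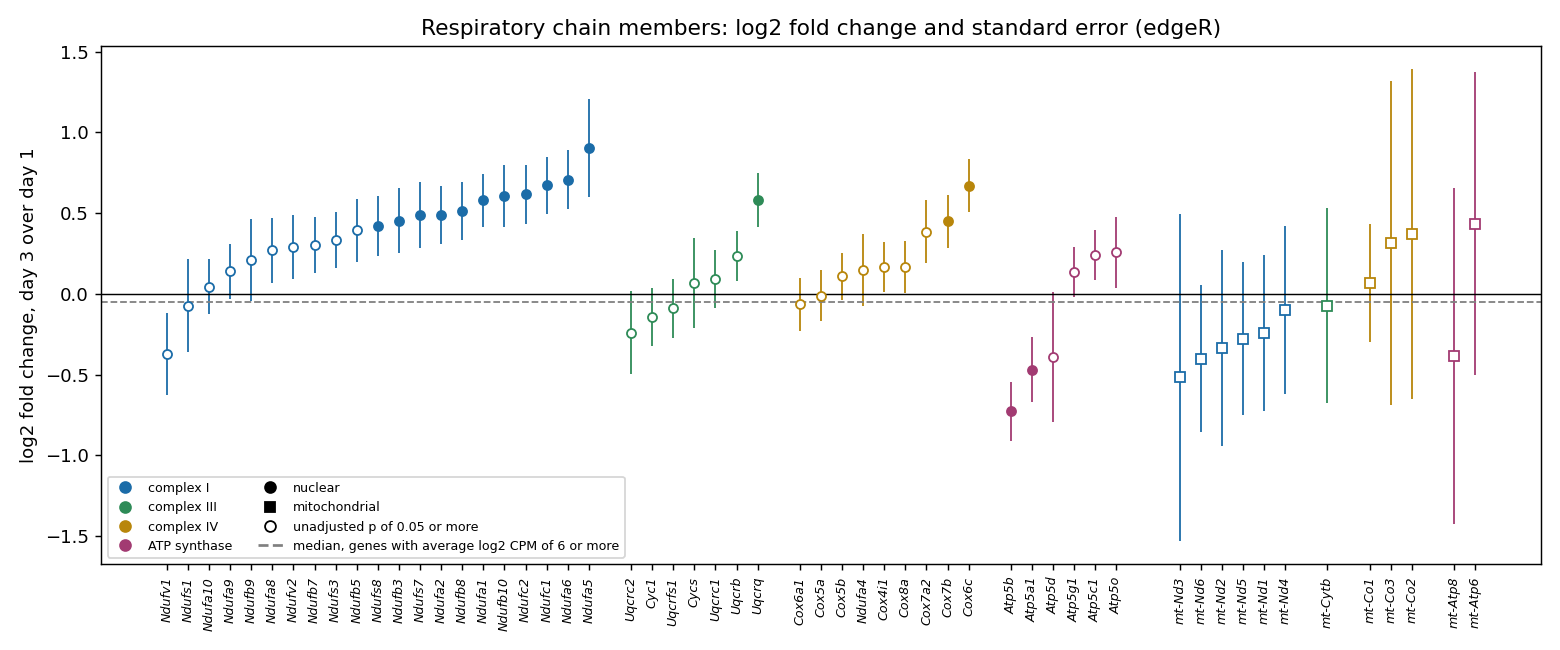
Log2 fold change of day 3 over day 1 for the 55 tested members, with bars of 1 standard error, grouped by genome (circles nuclear, squares mitochondrial) and coloured by complex. Filled symbols have an unadjusted p under 0.05. The nuclear complex I members lie mostly above 0 (19 of 21), Atp5b is lowest of the nuclear members at -0.73, and every mitochondrial member's bar crosses 0.

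The mitochondrial members fell into 2 sets by how many reads were assigned to them. In the first set, mt-Nd1, mt-Nd2, mt-Nd4, mt-Nd5 and mt-Nd6 (proton-pumping subunits of complex I), mt-Cytb (cytochrome b of complex III) and mt-Co1 (the catalytic subunit of complex IV), 7 genes in all, had 3398 to 513875 counts in a library. In the second set, the 6 genes mt-Nd3, mt-Nd4l, mt-Co2, mt-Co3, mt-Atp6 and mt-Atp8, the counts were 1 to 167. Per kilobase of exon, the mean level was 239 to 5634 CPM in the first set and 0.514 to 3.37 CPM in the second.

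The low counts coincided with sequence that the annotation holds a second time in the nuclear genome. Every stretch of 100 bases of each member's annotated transcript was looked for in the transcripts of all other genes. For mt-Co2, mt-Co3, mt-Atp6, mt-Nd3 and mt-Nd4l, between 97.6% and 99.9% of these windows were found in another gene, against 60.8% for mt-Nd4, 30.8% for mt-Co1, 3.20% for mt-Nd2 and 0 for mt-Cytb, mt-Nd1, mt-Nd5 and mt-Nd6. For mt-Nd2 the other gene is Gm13339 on chromosome 2, where Gm13340 and Gm13341 also hold windows of mt-Co1 and mt-Co2. The rest are annotated copies that stand side by side on the minus strand of chromosome 1, in 4663 bases at chr1:24650616-24655278 (GRCm39), in the order of the mitochondrial chromosome. Gm28661 holds 681 of the 684 bases of mt-Co2 with 0 substitutions, Gm10925 holds 678 of 681 of mt-Atp6, Gm28437 holds 783 of 784 of mt-Co3, Gm28438 holds 342 of 348 of mt-Nd3, Gm10222 holds 294 of 297 of mt-Nd4l and Gm28439 holds the first 876 of 1378 bases of mt-Nd4. Gm29216 holds the last 483 bases of mt-Co1 with 1 substitution, A1066T, counted from 1 at the first base of mt-Co1. For mt-Atp8 no annotated copy was found, and the copies of mt-Co2 and mt-Atp6, its neighbours on the mitochondrial chromosome, are 233 bases apart in the chromosome 1 block. Of the 204 exon bases of mt-Atp8, 43 (21.1%) also lie in mt-Atp6.

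The stretches below show the start of a gene that is copied whole and the place in mt-Co1 where the copy begins. Shown last is the start of mt-Cytb, for which no window was found in another annotated gene. Capitals mark bases that the gene and its copy share in their alignment, and lower case marks the rest. Sequences are those of the GENCODE M21 transcripts, and positions are those of the counted annotation, GRCm39.
mt-Co3, MT:8607-8696, plus strand: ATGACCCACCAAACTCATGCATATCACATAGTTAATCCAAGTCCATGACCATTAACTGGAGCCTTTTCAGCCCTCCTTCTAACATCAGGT
Gm28437, chr1:24652963-24653052, minus strand: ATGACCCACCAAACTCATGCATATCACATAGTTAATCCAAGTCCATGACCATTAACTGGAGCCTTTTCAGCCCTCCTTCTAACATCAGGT
mt-Co1, MT:6381-6470, plus strand: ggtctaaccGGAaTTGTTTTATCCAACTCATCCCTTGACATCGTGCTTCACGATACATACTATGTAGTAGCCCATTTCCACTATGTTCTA
Gm29216, chr1:24655189-24655278, minus strand: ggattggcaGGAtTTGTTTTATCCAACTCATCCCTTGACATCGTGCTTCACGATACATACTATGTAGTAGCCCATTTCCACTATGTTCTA
mt-Cytb, MT:14145-14234, plus strand: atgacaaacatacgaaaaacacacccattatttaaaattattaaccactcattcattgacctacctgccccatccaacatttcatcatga

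A read from within the shared bases has 2 equally good positions, and the recorded counting command holds no option for reads with several positions. The chromosome 1 copies themselves had 0 to 235 counts in a library. No day difference is therefore read from the 6 low genes, and mt-Nd4 and mt-Co1 are copied in part. The part of the copies in the low counts was not tested on reads.

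**Figure D2:**
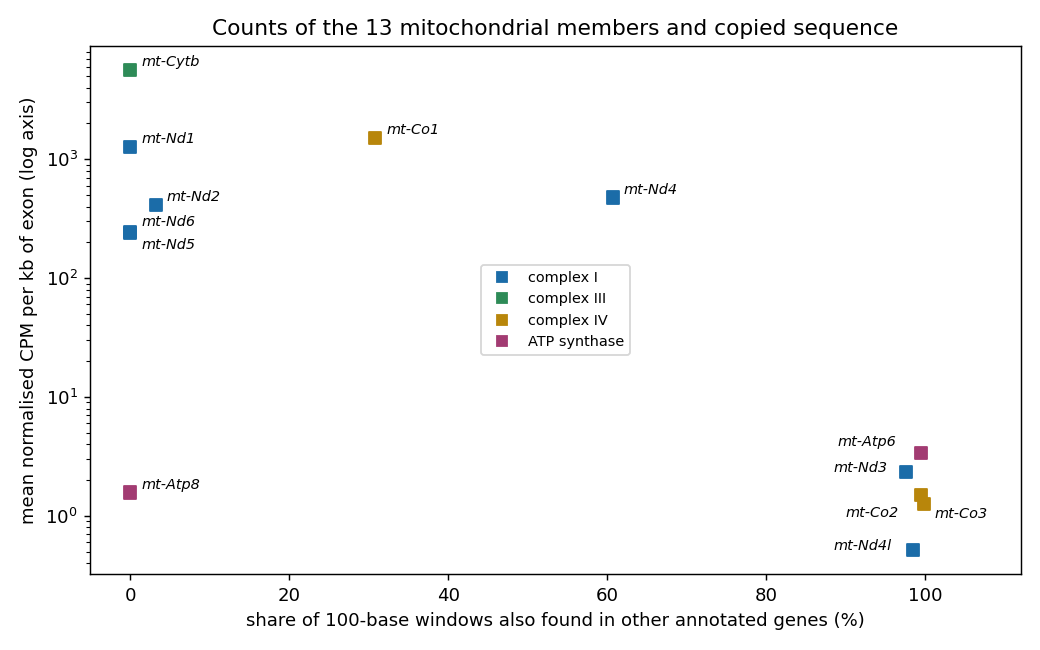
Mean normalised CPM per kb of exon (log axis) of the 13 mitochondrial members against the share of their 100-base windows that is also found in other annotated genes, coloured by complex. The 5 genes above 97% lie at 0.514 to 3.37 CPM per kb, the 7 well-counted genes at 239 or more, and mt-Atp8, for which the chromosome 1 block has no annotated copy, lies at 1.57.

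Among the well-counted genes, mt-Cytb, the only mitochondrial subunit of complex III, was the most abundant. It made up 37.6% of the mitochondrial sum in day 1 c and 52.6% to 58.5% in the other libraries. Its normalised level was 12880 CPM in day 1 a, 5839 in b and 1233 in c, and 6120, 7776, 9922, 4206 and 3590 CPM in day 3 a to e. All 5 day 3 libraries lay between the highest and the lowest day 1 library. The log2 fold change was -0.07 ± 0.60 (SE; edgeR, adjusted p = 0.973).

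The catalytic subunit mt-Co1 had 3645, 2138 and 1033 CPM at day 1 and 2482, 3006, 2881, 1865 and 1681 CPM at day 3. The highest and the lowest value again both came from day 1. Its log2 fold change was 0.07 ± 0.37 (SE; edgeR, adjusted p = 0.955).

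Of the complex I genes, mt-Nd1 had 2490, 1077 and 471 CPM at day 1 and 1116, 1266, 1821, 821 and 667 CPM at day 3. For mt-Nd2 the values were 996, 376 and 105 CPM at day 1 and 185 to 632 CPM at day 3. Both showed the same order within day 1, a above b above c. The log2 fold changes were -0.24 ± 0.48 for mt-Nd1, -0.34 ± 0.61 for mt-Nd2, -0.10 ± 0.52 for mt-Nd4, -0.28 ± 0.47 for mt-Nd5 and -0.40 ± 0.45 for mt-Nd6 (SE; edgeR, adjusted p of 0.744 or more). mt-Nd6 is the only protein gene on the other mitochondrial strand, and its counts varied between pools with the rest: 271, 115 and 65.0 CPM at day 1 and 64.3 to 175 CPM at day 3. The recorded counting command holds no option for strand, so these counts may include reads from RNA of the opposite strand.

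Day 1 a was the highest of the 8 libraries for 7 of the 7 well-counted genes, and day 1 c the lowest for 6, the exception being mt-Nd6, lowest in day 3 e. Between the highest and the lowest day 1 library the levels of these genes differed 3.53- to 10.4-fold, with a median of 5.28, and between those of day 3 by a median of 2.72. Over the nuclear members the same medians were 1.40 at day 1 and 1.33 at day 3. Without day 1 a the median log2 fold change of the mitochondrial members was 0.64, and without day 1 c it was -0.60, so 1 library sets its direction. With limma voom it was 0.18.

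The 2 mitochondrial rRNAs, which are cut from the same strand's transcript near its start, varied less. mt-Rnr2 had 2122, 1699 and 1488 CPM at day 1 and 1936, 2869, 2132, 1629 and 1578 CPM at day 3. mt-Rnr1 had 171, 133 and 107 CPM at day 1 and 107 to 204 CPM at day 3. The mitochondrial members summed to 9.80, 5.74 and 2.06 times the rRNA sum in day 1 a, b and c, and to 4.04 to 7.39 times in the day 3 libraries. Day 1 c had an rRNA sum of 1596 CPM, close to the lowest of day 3 (1685 CPM), and a sum of the mitochondrial members of 3281 CPM where the lowest of day 3 was 6799 CPM.

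**Figure D3:**
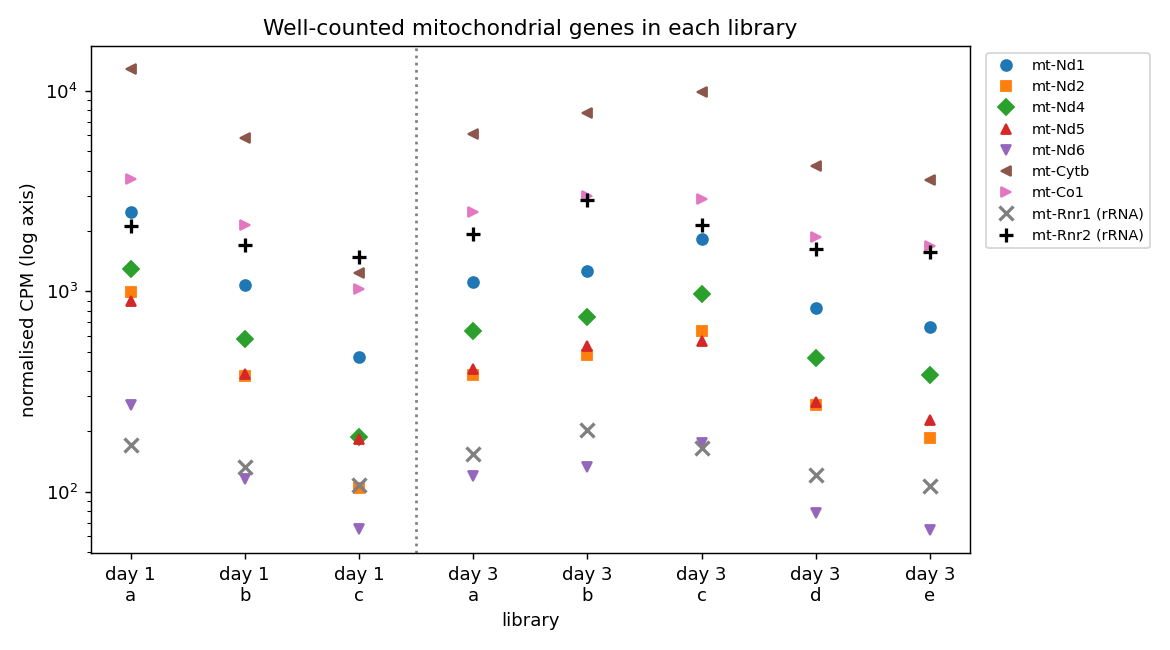
Normalised CPM (log axis) of the 7 well-counted mitochondrial members and the 2 mitochondrial rRNAs in each library, the dotted line between the days. Day 1 a is highest and day 1 c lowest for most mRNAs, with the day 3 libraries between them, while the rRNAs stay within 1.91- and 1.93-fold over all 8 libraries.

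For the second set the counts are given. mt-Co2 had 54, 54 and 18 counts at day 1 and 42 to 68 at day 3, mt-Co3 had 51, 54 and 22 at day 1 and 46 to 75 at day 3, and mt-Atp6 had 144, 100 and 20 at day 1 and 94 to 167 at day 3. These encode the other core subunits of complex IV and the proton channel subunit of ATP synthase, and day 1 c was the lowest library for all of them. mt-Nd3 had 17 to 63 counts and mt-Atp8 6 to 26. mt-Nd4l, with 1 to 15 counts, did not pass the filter on low counts.

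The nuclear members summed to 5260, 5305 and 5170 CPM at day 1 and to 6578, 5771, 5557, 5597 and 5723 CPM at day 3. All day 3 libraries were above all day 1 libraries, by 1.11-fold in the means. The mitochondrial members summed to 22476, 10512 and 3281 CPM at day 1 and to 11274, 13948, 16968, 7990 and 6799 CPM at day 3, a ratio of means of 0.943. The ratio of mitochondrial to nuclear sums within a library, which no scaling factor changes, was 4.27, 1.98 and 0.635 at day 1 and 1.71, 2.42, 3.05, 1.43 and 1.19 at day 3. Its means were 2.30 ± 1.84 and 1.96 ± 0.765 (SD, n = 3 and 5), and the days overlapped. By complex, the ratio was 0.713 to 3.52 at day 1 and 0.707 to 1.95 at day 3 for complex I, 1.30 to 10.3 and 3.02 to 8.24 for complex III, and 0.757 to 3.00 and 1.20 to 2.22 for complex IV, with overlap in each. In complex IV, mt-Co2 and mt-Co3 belong to the second set, so its ratio is in effect that of mt-Co1 alone to the nuclear members. For ATP synthase both mitochondrial members belong to the second set, and no ratio is read.

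Over the 3 day 1 libraries the neutrophil marker sum ran in the opposite order to the mitochondrial sum, from 995 CPM in a to 4794 CPM in c. The fibroblast marker sum did so too, rising from 289 to 437 CPM. Other lists fell along with the mitochondrial sum: skeletal muscle markers from 13.1 to 1.72 CPM and red cell markers from 4.61 to 1.89 CPM. Nothing particular to neutrophils is therefore read from the order of 3 libraries. At day 3 the library with the most neutrophil marker counts, b (4123 CPM), had the second highest mitochondrial sum. The part of other cells in the mitochondrial spread was not tested.

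**Figure D4:**
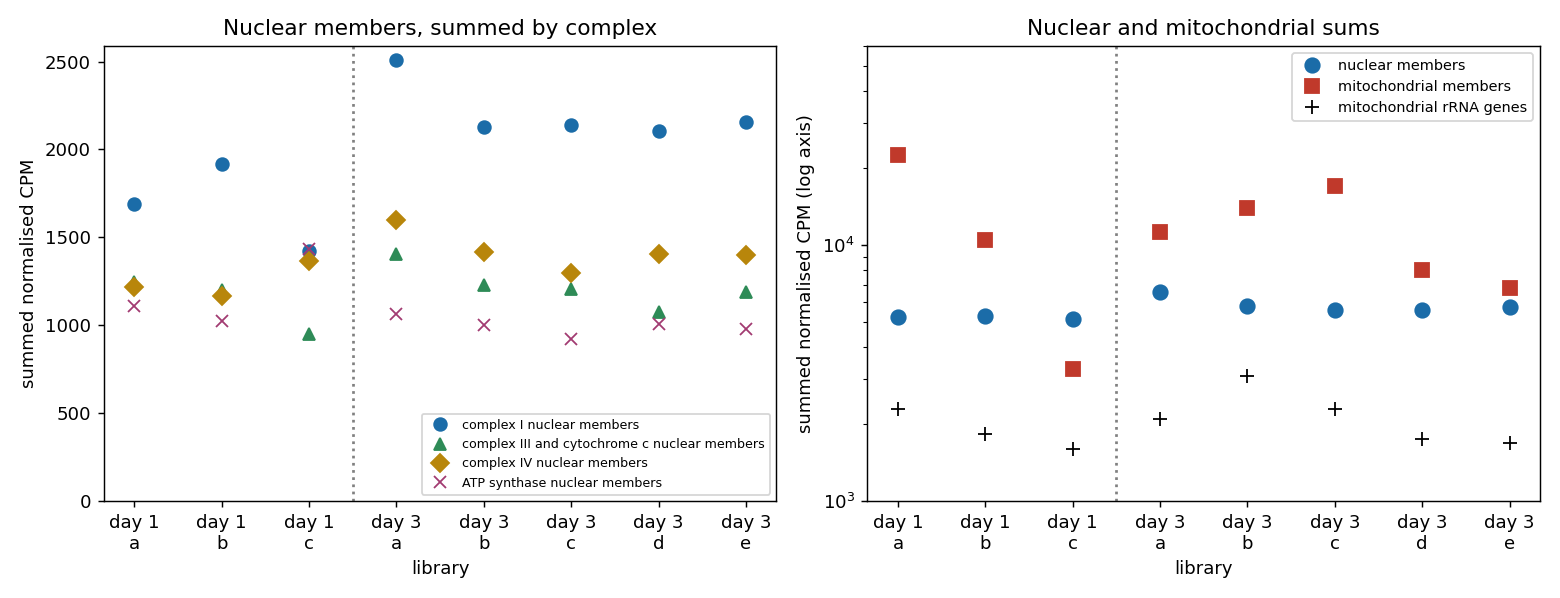
Left, summed normalised CPM of the nuclear members of each complex in each library. Right, the sums of all nuclear members, all mitochondrial members and the 2 mitochondrial rRNAs on a log axis. Complex I sums of day 3 (2105 to 2509) all lie above those of day 1 (1421 to 1915), ATP synthase is highest in day 1 c (1435), and the mitochondrial sum spans 6.85-fold where the nuclear sum spans 1.27-fold.

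Complex I, which takes electrons from NADH, held most of the nuclear members with a higher level at day 3. Its nuclear members summed to 1689, 1915 and 1421 CPM at day 1 and to 2509, 2127, 2136, 2105 and 2157 CPM at day 3, without overlap, a ratio of 1.32. Of the 21 members, 19 had a log2 fold change above 0, where 42.7% of all genes tested did, and the median was 0.42. Of the 19, 11 had an unadjusted p under 0.05 (5.12% of all genes tested were higher at this threshold). The libraries did not overlap for 7 members, all higher at day 3, against 5.22% of all genes tested.

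The supernumerary subunits, which surround the core without carrying electrons, accounted for most of these. Their median log2 fold change was 0.49 over 15 members, with all 15 above 0. Their median coding length was 411 bases. Of all genes with an average log2 CPM of 6 or more and a coding length up to 600 bases, 64.8% lay above 0. Ndufa6 (chr15:82234341-82238523), a subunit of the matrix arm, had 55.2, 75.8 and 60.5 CPM at day 1 and 123, 92.5, 101, 95.3 and 110 CPM at day 3. Every day 3 library lay above every day 1 library, and the log2 fold change was 0.71 ± 0.18 (SE; edgeR, adjusted p = 0.0853; DESeq2, adjusted p = 0.00949).

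Ndufc1 (chr3:51312098-51316409), a small membrane-arm subunit, had 80.5, 85.7 and 65.6 CPM at day 1 and 107 to 145 CPM at day 3. The days did not overlap, and the log2 fold change was 0.67 ± 0.17 (SE; edgeR, adjusted p = 0.0888). Its partner Ndufc2 had 70.8, 94.3 and 82.4 CPM at day 1 and 110 to 156 CPM at day 3, with a log2 fold change of 0.62 ± 0.18.

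Ndufa5 had the largest log2 fold change of the nuclear members, 0.91 ± 0.30 (SE; edgeR, adjusted p = 0.173). Its levels were low, 16.3, 37.3 and 20 CPM at day 1 and 50.6, 36.2, 53.7, 45.4 and 44.1 CPM at day 3, and day 1 b lay above day 3 b. Ndufa1 and Ndufa2, the most abundant nuclear complex I members per kb of exon, had log2 fold changes of 0.58 ± 0.17 and 0.49 ± 0.18, both without overlap. The membrane-arm subunits Ndufb10, Ndufb8 and Ndufb3 had 0.61 ± 0.19, 0.51 ± 0.18 and 0.45 ± 0.20, the first 2 without overlap.

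The nuclear core subunits among the members, which bind NADH and the flavin, carry iron-sulphur clusters or hold the core together, gave mixed values with a median of 0.31 over 6. Ndufs7 and Ndufs8, iron-sulphur proteins near the quinone site, had log2 fold changes of 0.49 ± 0.20 and 0.42 ± 0.19, but both overlapped between the days. Ndufv1, which binds NADH and flavin, had the lowest value of complex I, -0.37 ± 0.25, with 48.3, 74.9 and 54.7 CPM at day 1 and 29.1 to 56.0 CPM at day 3. Ndufs1, the largest subunit, had -0.07 ± 0.29, and Ndufs3 and Ndufv2 had 0.33 ± 0.17 and 0.29 ± 0.20.

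In complex III, which hands electrons from quinol to cytochrome c, 1 of 7 members stood apart. Uqcrq, a small subunit next to cytochrome b, had 123, 127 and 96.2 CPM at day 1 and 205, 170, 168, 164 and 156 CPM at day 3. No day 1 library reached a day 3 library, and the log2 fold change was 0.58 ± 0.17 (SE; edgeR, adjusted p = 0.114; DESeq2, adjusted p = 0.0289). The electron carriers gave values near 0 within their errors: Cyc1 (cytochrome c1) -0.14 ± 0.18, Uqcrfs1 (the Rieske iron-sulphur protein) -0.09 ± 0.18 and Cycs (cytochrome c) 0.07 ± 0.28. The core proteins Uqcrc1 and Uqcrc2 had 0.09 ± 0.18 and -0.24 ± 0.26, and Uqcrb had 0.24 ± 0.16. Cycs varied most of these between the day 1 pools, with 244, 180 and 98.3 CPM at day 1 and 148 to 240 CPM at day 3, and 22.6% of its windows are shared with other genes. Without day 1 c its log2 fold change was -0.21, and without day 1 a it was 0.39.

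In complex IV, which reduces oxygen, Cox6c and Cox7b had higher levels in every day 3 library. Cox6c (chr15:35926032-35938392), a small membrane subunit, had 77.2, 98.2 and 95.1 CPM at day 1 and 170, 142, 131, 132 and 142 CPM at day 3. Its log2 fold change was 0.67 ± 0.16, and its adjusted p of 0.0824 was the lowest of all members in edgeR, against 0.00437 in DESeq2 and 0.0462 in limma voom. Cox7b had 103, 92.6 and 81.3 CPM at day 1 and 114 to 149 CPM at day 3, a log2 fold change of 0.45 ± 0.16. The abundant Cox4i1 had 281, 279 and 373 CPM at day 1 and 314 to 383 CPM at day 3 (0.17 ± 0.16), and Cox6a1 (-0.06 ± 0.16) and Cox5a (-0.01 ± 0.16) had values close to 0. The other members, Cox5b, Cox7a2, Cox8a and Ndufa4, lay between 0.11 and 0.38.

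ATP synthase was the only group with members at an unadjusted p under 0.05 and a lower level at day 3. Atp5b (chr10:127919142-127926260), the catalytic beta subunit, had 400, 341 and 560 CPM at day 1 and 233, 285, 242, 286 and 265 CPM at day 3. All day 1 libraries were above all day 3 libraries, the one member to show this, where 8.84% of all genes tested did. Its log2 fold change was -0.73 ± 0.18 (SE; edgeR, adjusted p = 0.084), and it was called by DESeq2 (0.00994), by limma voom (0.0488) and by edgeR without a filter on low counts (0.0408), where 2.95% of genes were called lower.

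Atp5a1, the alpha subunit that forms the catalytic ring with Atp5b, had 228, 203 and 375 CPM at day 1 and 210, 192, 194, 182 and 193 CPM at day 3. Day 1 c stood above the rest and day 3 a lay above day 1 b. The log2 fold change was -0.47 ± 0.20 (SE; edgeR, adjusted p = 0.305). Without day 1 c it was -0.15, and that of Atp5b was -0.50. Atp5d, the delta subunit of the central stalk, was also highest in day 1 c, with 26.2, 62.4 and 116 CPM at day 1 and 39.0 to 66.7 CPM at day 3. The log2 fold change was -0.39 ± 0.40, and 0.22 without day 1 c. The gamma subunit Atp5c1, the peripheral stalk subunit Atp5o and the c-ring subunit Atp5g1 had 0.24 ± 0.15, 0.26 ± 0.22 and 0.14 ± 0.15. For Atp5o, 47.9% of exon bases overlap other annotated genes, and reads in them cannot be assigned.

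**Figure D5:**
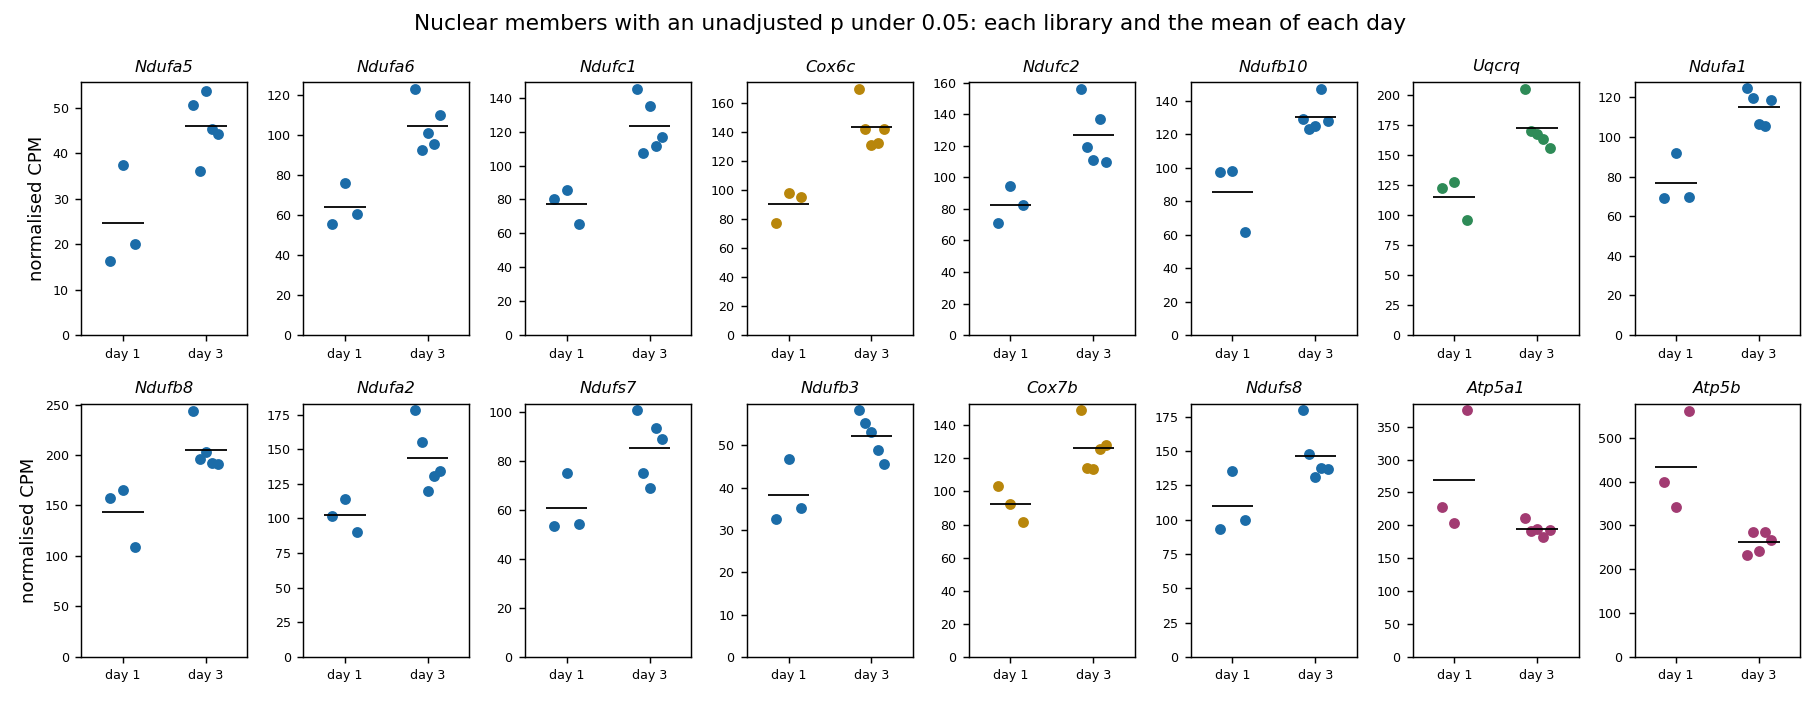
Normalised CPM of the 16 nuclear members with an unadjusted p under 0.05, 1 point per library and a line at the mean of each day (n = 3 and 5), coloured by complex. Day 3 points lie above day 1 points for 10 members, below them for Atp5b, and overlap in the other 5. These 16 were selected by their p. Of all 43 nuclear members, 10 were higher without overlap and 1 lower, where 5.22% and 8.84% of all genes tested were.

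The length of the encoded protein ran with the direction. The 27 nuclear members with a coding length of 600 bases or less had a median log2 fold change of 0.38, with 24 above 0 and 12 higher at an unadjusted p under 0.05. The 16 longer members had a median of 0.07, with 9 above 0, 2 higher and 2 lower at an unadjusted p under 0.05. Over all genes tested, 5.12% were higher and 10.6% lower at this threshold. The same order held over all genes with an average log2 CPM of 6 or more, from which the members were not taken out. The median was 0.17, with 64.8% above 0, over the 511 with a coding length of 600 bases or less. Over the 1786 longer ones it was -0.11, with 41.0% above 0. The part of length in the members' values was not tested.

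Libraries that stood apart touched the nuclear members too. Day 3 a was the highest of the 8 libraries for 23 of the 43 nuclear members, and day 1 c the lowest for 17 and day 1 a for 14. The same counts were not made over all genes tested, so nothing particular to the members is read from them. With day 1 c left out, 10 members had an unadjusted p under 0.05 in place of 16, while over all genes the share was 16.5% in place of 15.8%. Macrophage markers summed to 2.15 times the day 1 level at day 3 and inflammatory monocyte markers to 0.535 times, and the part of these shifts in the members' values was not tested.

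The remaining subunits of the chain, listed from general knowledge, also had mostly positive values. Of 37 further nuclear subunits of complexes I to IV and ATP synthase, 33 had a log2 fold change above 0 (42.7% of all genes tested did), with a median of 0.40. Among these 37, 15 had an unadjusted p under 0.05, all higher, where 5.12% of all genes tested were higher and 10.6% lower. None was called by edgeR, 9 were called higher by DESeq2 (2.64% of all genes) and 5 by limma voom (0.95%). In edgeR 4 were called with the stricter filter on low counts, where 1.79% of 8142 genes were called: Ndufa13, Ndufv3, Cox7a2l and Atpif1. Atpif1, the inhibitor that stops ATP synthase from running in reverse, had 79.7, 90.1 and 57.8 CPM at day 1 and 178, 140, 143, 147 and 145 CPM at day 3. Its log2 fold change was 0.99 ± 0.19 (SE; edgeR, adjusted p = 0.0732; 0.0347 with the stricter filter). Its level was higher in every day 3 library than in any of day 1, the opposite of Atp5b, the subunit this inhibitor binds.

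Cox7a2l, which helps complexes III and IV join into supercomplexes, had 49.4, 71.2 and 51.6 CPM at day 1 and 105, 133, 99.6, 127 and 106 CPM at day 3, without overlap. Its log2 fold change was 0.99 ± 0.20 (SE; edgeR, adjusted p = 0.0763; 0.0355 with the stricter filter). The complex I subunits Ndufa13, Ndufv3 and Ndufa7 had 0.84 ± 0.15, 0.86 ± 0.17 and 0.75 ± 0.19. The complex III subunits Uqcr10, Uqcr11 and Uqcrh had 0.59 ± 0.18, 0.56 ± 0.19 and 0.54 ± 0.19, in complex IV Cox7c had 0.72 ± 0.20 and Cox6b1 0.34 ± 0.17, and in ATP synthase Atp5j2 and Atp5j had 0.59 ± 0.16 and 0.40 ± 0.16. Complex II, the succinate dehydrogenase that is wholly nuclear, gave 0 of 4 subunits at an unadjusted p under 0.05, with Sdhb at 0.34 ± 0.23, Sdhd at 0.25 ± 0.15, Sdha at 0.20 ± 0.17 and Sdhc at -0.33 ± 0.37. Sdhc had 127 CPM in day 1 c and 35.4 to 67.6 CPM in the other libraries, and without day 1 c its log2 fold change was 0.31.

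Of 13 paralogues used in particular tissues or states, 7 were tested and none was called by edgeR. AA467197, a paralogue of Ndufa4 known from inflammatory macrophages, had 21.9, 28.2 and 27.2 CPM at day 1 and 11.7, 34.9, 11.4, 8.40 and 5.58 CPM at day 3. It was below all day 1 libraries in 4 of 5 day 3 libraries and highest of all in day 3 b, where neutrophil markers were also highest of that day, and its log2 fold change was -0.84 ± 0.55 (SE; edgeR, adjusted p = 0.526). Ndufa4 itself had 84.3, 89.5 and 111 CPM at day 1 and 154, 84.2, 95.2, 97.5 and 94.5 CPM at day 3, with overlap. The hypoxia-induced Ndufa4l2 had 0, 1.90 and 0.696 CPM at day 1 and 2.23 to 10.7 CPM at day 3, and the muscle form Cox6a2 had 0, 0.417 and 0 CPM at day 1 and 1.59 to 3.59 CPM at day 3, both at few counts. Cox6a2 was called higher by limma voom (adjusted p = 0.0298; DESeq2, 0.0504; edgeR, 0.319). Higd1a (0.32 ± 0.25), Cox7a1 (0.53 ± 0.50) and Cox4i2 (0.27 ± 1.15) overlapped between the days.

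None of the genes listed for building the complexes or for expressing the mitochondrial genome was called by edgeR. DESeq2 called Ndufaf8 (adjusted p = 0.0271) and Hsd17b10 (adjusted p = 0.0193) higher, 1 gene of each list, where it called 2.64% of all genes higher. Of 42 assembly factors, 40 were tested and 30 had a log2 fold change above 0, where 42.7% of all genes tested did. An unadjusted p under 0.05 was found for 7, all higher, where 5.12% of all genes tested were higher and 10.6% lower. Among them were Ndufaf8 at 0.83 ± 0.25, Surf1 at 0.97 ± 0.33 and Coa3 at 0.58 ± 0.20. Of 25 genes for mitochondrial DNA transcription and RNA handling, 18 were above 0, where 42.7% of all genes tested were. At an unadjusted p under 0.05, 2 of the 25 were higher, a share near that of all genes (5.12% higher). These were Hsd17b10 (0.61 ± 0.18) and Trmt10c (0.96 ± 0.36), which are known as subunits of the enzyme that cuts the 5′ ends of mitochondrial tRNAs. Ssbp1, which binds single-stranded mitochondrial DNA, had 0.46 ± 0.21. Of 9 nuclear regulators of respiratory genes, 0 had an unadjusted p under 0.05, and the lowest p among them belonged to Gabpa (-0.45 ± 0.22), Esrra (-1.73 ± 1.22, with 15.0 CPM in day 1 c and 0.0977 to 3.19 CPM elsewhere) and Yy1 (0.38 ± 0.31).

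Many nuclear respiratory genes are known targets of NRF1, of ETS factors such as GABP and of YY1, and promoters were searched for their core motifs on both strands, from 250 bases before to 50 bases after the RefSeq start (GRCm38.p6). A promoter sequence was found for 33 of the 43 nuclear members. The NRF1 core CGCATGCG stood in 4 of them (12.1%, against 2.07% of 27025 genes): Ndufa8, Cox6a1, Cycs and Uqcrc1. The ETS motif CCGGAAG stood in 5 (15.2% against 9.93%): Ndufs3, Cox6a1, Ndufb7, Cox8a and Ndufs8. The YY1 motif AAGATGGCG stood in 3 (9.09% against 1.64%): Ndufc1, Ndufa9 and Ndufs7. The promoters of Ndufc1, among the members with the largest fold changes, and of Cycs, with a value near 0, are shown with their motif in capitals.
Ndufc1, chr3:51408906-51409205, minus strand: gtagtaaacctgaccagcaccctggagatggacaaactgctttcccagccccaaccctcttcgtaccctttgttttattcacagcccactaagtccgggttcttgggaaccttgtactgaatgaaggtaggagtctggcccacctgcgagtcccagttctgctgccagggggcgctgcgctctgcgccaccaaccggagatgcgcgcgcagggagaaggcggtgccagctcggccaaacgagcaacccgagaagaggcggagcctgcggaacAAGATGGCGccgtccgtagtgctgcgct
Cycs, chr6:50566520-50566819, minus strand: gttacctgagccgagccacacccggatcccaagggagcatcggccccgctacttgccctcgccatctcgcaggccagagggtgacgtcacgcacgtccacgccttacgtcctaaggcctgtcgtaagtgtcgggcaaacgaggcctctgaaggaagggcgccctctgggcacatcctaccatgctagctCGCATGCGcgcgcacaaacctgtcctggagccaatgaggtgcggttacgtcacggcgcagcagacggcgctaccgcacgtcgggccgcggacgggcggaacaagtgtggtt
Log2 fold changes of the 4 members with the NRF1 core ran from -0.06 to 0.27. Those of the 5 with the ETS motif ran from -0.06 to 0.42 and those of the 3 with the YY1 motif from 0.14 to 0.67. A match is a description of these letters and no evidence of binding.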

How the data were processed

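RNA of F4/80-selected wound macrophages was sequenced in 3 pools of day 1 and 5 of day 3. The authors deposited raw counts per gene with no scaling. featureCounts 1.6.0 assigned reads to the Ensembl 106 genes of GRCm39, per the file headers, and the recorded command has no option for strand, read pairs or reads with several positions. The submitters' processing notes also name Trimmomatic and DESeq2; which aligner was used is not given in these sources. Of counts from 2 to 20, 73.0% were even in day 1 c and 81.3% to 86.0% in the other libraries, so a pair probably gave a count of 2. The total per library was 41566151 to 60289310, and 3 counts, taken as the floor, were 0.0498 to 0.0722 CPM, for counting error only. The alignments in the command carry partly other letters than the columns, so letters are names only.

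Genes were filtered with filterByExpr (minimum count 10), scaled by TMM and tested over all 15371 genes with the two-sided quasi-likelihood F test of edgeR, adjusted by Benjamini-Hochberg, at a threshold of 0.05. Fold changes are day 3 over day 1 ± SE, and CPM are TMM-normalised. Tools were edgeR 4.0.16, DESeq2 1.42.0 and limma 3.58.1 in R 4.3.3, and pandas 2.3.3 in Python 3.11.15. Atp5o stands on 2 gene identifiers, of which the one with counts was used. Windows of 100 bases and coding lengths came from GENCODE M21 (GRCm38). CPM per kb uses the union of all exons, which for some nuclear genes includes retained introns.

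Sums, ratios, medians and lists are descriptions without a test. Members and gene lists were chosen with earlier results of these data known. Named genes are all mitochondrial members; per complex the 2 most abundant nuclear members per kb, the 2 highest and 2 lowest fold changes and those with an unadjusted p under 0.05; the 3 lowest p of each further list; and paralogues with a mean of 1 CPM or more on either day. Other members named were added after their values were seen. The marker lists were macrophage, neutrophil, inflammatory monocyte, fibroblast, keratinocyte, skeletal muscle, adipocyte, endothelial and red cell. Alternatives were DESeq2, limma voom, RLE scaling, library totals, TMM without chromosome MT, no filter, a stricter filter (mean of 5 CPM, and 1 CPM in all libraries of either day), each library left out, only the letters a to c, blocked and unblocked, and sums without the most abundant, overlapping or copied members. Halved counts, leaving out day 1 c and day 3 b together, and sums without copied members were added after seeing the data.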

Additional observations from a re-analysis of the deposited data

Results flagged for a closer look

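Among 118 results examined over the 5 day 3 libraries, 14 had 1 library far from the others (the gap to the nearest library divided by the range of all 5). For normally distributed values chance marks about 1 in 20 such groups. The results share libraries, and some sums contain other results, so the number flagged cannot be set against that rate. Day 3 a was the far library, and the high one, for the sum of nuclear members (0.79 of the range; 6578 CPM against 5557 to 5772), the complex I nuclear sum (0.87; 2509 against 2105 to 2157 CPM), Atpif1 (0.811), Ndufa4 (0.809), Ndufb8 (0.779), Cox6b1 (0.73), Uqcrq (0.722) and Cox6c (0.717). The same library also stood apart in the number of genes with a count (0.927; 20557, against 14952 to 15359 in the others). Day 3 b was far above the others for AA467197 (0.79; 34.9 against 5.58 to 11.7 CPM), for the neutrophil markers (0.935) and for the keratinocyte markers (0.866; 29.5 against 0.684 to 4.55 CPM). Ndufb10 was high in day 3 d (0.737) and mt-Co3, with few counts, in day 3 c (0.756).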

How the results depend on the processing

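Differences of the size seen in the nuclear members did not pass the adjustment over all genes in edgeR, with 3 and 5 pools. With the same pools DESeq2 called 7 members. The mitochondrial members had a large spread at day 1, and their day difference is not readable beyond the spread of the pools. Of 69 genes named by the rule and with a fit, 52 kept their sign under every alternative. Genes called numbered 2 in the main analysis, 1041 with DESeq2, 831 with limma voom, 1347 with no filter on low counts, 146 with the stricter filter, 44 with halved counts, 6 without both day 1 c and day 3 b, 0 with the letters a to c unblocked and 0 to 31 with each library left out. Members called numbered 0, and 7, 2 and 1 with DESeq2, limma voom and no filter. The median log2 fold change of the nuclear members ran from 0.18 to 0.29, and that of the mitochondrial members from -0.60 to 0.64, with each library left out (with limma voom 0.18). Mitochondrial medians here are over all tested members, low genes included. The log2 ratio of mitochondrial to nuclear sums, -0.23, was -0.67 when day 1 c was left out, 0.58 when day 1 a was, -0.76 without both day 1 c and day 3 b and -0.27 without copied members. With each library left out, the nuclear sum, 0.16, ran from 0.11 to 0.17 and the mitochondrial sum, -0.09, from -0.53 to 0.72. With the letters a to c unblocked the ratio was 0.060, the mitochondrial sum 0.22, the nuclear sum 0.19 and the mitochondrial median 0.15. Without both day 1 c and day 3 b the mitochondrial sum was -0.62 and the mitochondrial median -0.62.

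Signs changed as follows, and the cause was not tested beyond the libraries left out. With limma voom the values were Cox5a 0.0041, mt-Nd1 0.022, mt-Nd2 0.12, mt-Nd4 0.26, mt-Cytb 0.42 and Cox4i2 -0.065. Cox5a was 0.0082 with library totals alone, 0.014 with no filter and 0.023 with the stricter filter. Without both day 1 c and day 3 b the values were Uqcrc1 -0.078, Cox6a1 0.090, mt-Co1 -0.37, mt-Co2 -0.10, mt-Atp6 -0.076 and Esrra 0.92. With each library left out the ranges were Cox5a -0.098 to 0.095, mt-Nd1 -0.64 to 0.55, mt-Nd2 -0.81 to 0.69, mt-Nd4 -0.54 to 0.73, mt-Nd5 -0.66 to 0.50, mt-Nd6 -0.76 to 0.33, mt-Cytb -0.56 to 0.84, mt-Atp8 -0.82 to 0.26, Cox4i2 -0.078 to 0.54, Ndufs1 -0.27 to 0.17, Uqcrc1 -0.076 to 0.24, Cox6a1 -0.20 to 0.065, mt-Co1 -0.28 to 0.58, mt-Co2 -0.017 to 0.85, mt-Co3 -0.027 to 0.70, mt-Atp6 -0.048 to 1.32 and Esrra -2.28 to 0.88. Of other genes with values in the text, the ranges were Atp5d -0.80 to 0.22, Cycs -0.21 to 0.39, Ndufa4 -0.022 to 0.28 and Sdhc -0.63 to 0.31.

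The letters a to c were not found to pair the pools: same-letter deviations correlated at 0.09, 0.03 and -0.05. With the letter as a replicate block over these 6 pools, 0 genes and 0 members were called by edgeR (1343 and 7 at an unadjusted p under 0.05), the median was 0.32 for the nuclear and 0.48 for the mitochondrial members, and the values of other sign were Ndufs1 0.041, Cox5a 0.011, mt-Nd1 0.35, mt-Nd2 0.51, mt-Nd4 0.56, mt-Nd5 0.35, mt-Nd6 0.17, mt-Cytb 0.74 and mt-Atp8 0.12. Without the block they were Ndufs1 0.056, Cox5a 0.012, mt-Nd1 0.085, mt-Nd2 0.048, mt-Nd4 0.22, mt-Nd5 0.069 and mt-Cytb 0.29.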

Other observations

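Markers of other cells were summed in normalised CPM as a description of the pools. Fibroblast markers were 289 to 437 at day 1 and 285 to 625 at day 3, and endothelial markers 28.8 to 66.6 and 13.8 to 26.9. Keratinocyte markers were 1.34 to 3.43 at day 1 and 0.684 to 29.5 at day 3, and skeletal muscle markers, with Mb at 0 counts in every library, were 1.72 to 13.1 and 0.360 to 14.9. Adipocyte markers were 12.4 to 29.1 and 17.5 to 48.2, and red cell markers 1.89 to 4.61 and 2.66 to 14.1. Inflammatory monocyte markers were 2785 to 3791 at day 1 and 1351 to 2140 at day 3.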
